A study of Arabidopsis thaliana with 23 samples.

Results

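Gibberellin 2-oxidases are the enzymes that switch off the plant growth hormone gibberellin. The set described here holds 7 genes of Arabidopsis thaliana, chosen by name and locus out of 27444 protein-coding genes of the nuclear chromosomes. Earlier results of these data were known when the set was chosen. They are GA2OX1 (AT1G78440), GA2OX2 (AT1G30040), GA2OX3 (AT2G34555), GA2OX4 (AT1G47990), GA2OX6 (AT1G02400), GA2OX7 (AT1G50960) and GA2OX8 (AT4G21200). All 7 were found in the gene table, 5 on chromosome 1, 1 on chromosome 2 (GA2OX3) and 1 on chromosome 4 (GA2OX8).

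Gibberellins promote stem elongation, flowering and fertility. Each 2-oxidase adds a hydroxyl group at carbon 2 of a gibberellin. An active gibberellin changed in this way is no longer recognised by the receptor. GA2OX1, GA2OX2, GA2OX3, GA2OX4 and GA2OX6 act on gibberellins with 19 carbons, the active forms and their direct precursors, while GA2OX7 and GA2OX8 act on earlier precursors with 20 carbons. H3K27me3, trimethylation of lysine 27 on histone H3, is the mark that Polycomb complexes place on silenced genes. REF6, ELF6 and JMJ13 are Jumonji-type enzymes that remove it.

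The series profiled flowers that had not opened, from plants aged 5 weeks in the Col-0 background, by chromatin immunoprecipitation with sequencing, in 23 samples. H3K27me3 was profiled with an antibody in wild-type plants (2 samples) and in plants with the alleles elf6-3, ref6C and jmj13G, called the triple mutant here (2 samples). REF6-GFP was precipitated through its GFP tag from plants with the ref6-3 allele, with DSG (3 samples) and without it (3 samples), DSG being an added protein crosslinker. A construct titled REF6-ZnF-GFP was precipitated with DSG from ref6 plants (3 samples) and from the triple mutant, where the labels give the REF6 promoter as its driver (2 samples). The labels do not say how the zinc fingers of that construct were altered. For its samples in ref6 the genotype entry reads REF6p::REF6-GFP ref6-3, against the title, which was followed here. Samples of GFP-only input DNA and of histone H3 were not analysed here. REF6 binding and the mark were thus measured in different plants, and the wild type and the triple mutant of the H3K27me3 comparison carry no tagged REF6 per the labels.

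Each group with a list has 1 peak list made from its pooled samples, so the values below come without replicate errors, and differences between lists could not be tested. The H3K27me3 lists hold 7914 wild-type and 9391 triple mutant domains. The REF6 lists hold 5393 peaks (REF6-GFP with DSG), 4526 (REF6-GFP without DSG), 9327 (REF6-ZnF-GFP in the triple mutant) and 332 (REF6-ZnF-GFP in ref6). Read depth is not given in these lists. A peak's fold enrichment over its control is the authors' value and is used only to rank peaks within 1 list. In whole flowers, a stretch that is marked in part of the cells and one marked in all of them cannot be told apart. The gene table gives no strand and no exons, so positions are given from the end of the gene with the lower coordinate and are not placed in exons, introns or promoters.

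The 7 genes fell into 2 sets by their mark in wild-type flowers. GA2OX1, GA2OX2 and GA2OX3 were almost free of H3K27me3 in the wild type, were covered in the triple mutant, and each had a strong REF6-GFP peak with its summit inside the gene. GA2OX4, GA2OX6, GA2OX7 and GA2OX8 were already covered over most of their length in the wild type and had no REF6-GFP summit in the body or within 1 kb. A gene is called marked here where domains cover at least 50% of its body. By this rule 4 of the 7 genes were marked in the wild type, against 23.7% of all coding genes, and 6 of 7 in the triple mutant, against 30.9%. The median coverage of the 7 genes was 73.5% in the wild type against 66.1% in the triple mutant, and the median over all coding genes was 0 in both lists. Gene by gene, the difference (triple mutant minus wild type) had a median of 0 and ran from -42.2 to 100 percentage points.

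**Figure D1:**
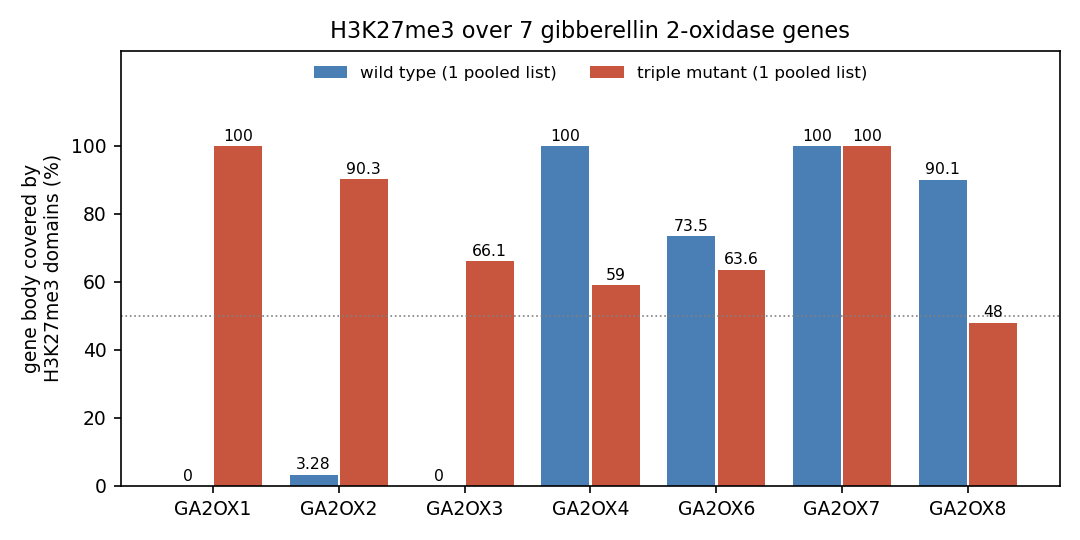
Share of each gene body (percent) covered by the deposited H3K27me3 domains in wild-type and triple mutant flowers, 1 pooled list per genotype, with the 50% limit for a marked gene as a dotted line. GA2OX1, GA2OX2 and GA2OX3 go from 0 to 3.28% in the wild type to 66.1 to 100% in the triple mutant, and GA2OX8 lies just under the limit in the triple mutant at 48.0%.

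A gene is called gained where its wild-type coverage was under 10% and its triple mutant coverage at least 50%. GA2OX1, GA2OX2 and GA2OX3 met this rule, 3 of 7 genes, against 6.29% of all coding genes. The reverse call, lost, was met by 0 of 7 genes and by 0.565% of all coding genes. With DSG, the same 3 genes had a REF6-GFP summit in the body or within 1 kb, against 25.1% of all coding genes, and without DSG again of these 3, against 21.4%. All 3 were both gained and bound by REF6-GFP with DSG, as were 4.34% of all coding genes. The other 4 genes were marked in the wild type and not bound, as were 20.5% of all coding genes. Genome-wide, 68.9% of gained genes and 13.3% of genes marked in the wild type were bound by REF6-GFP with DSG.

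GA2OX1 had 0% coverage in wild-type flowers and 100% in triple mutant flowers. Of the 19449 coding genes with less than 10% coverage in the wild type, 2.59% had a difference at least as large. The new domain spanned 6398 bp (chromosome 1, 29508848 to 29515245, TAIR10), and 87.3% of triple mutant domains had a lower fold. It covered both 1 kb flanks completely. A separate triple mutant domain (29502583 to 29508062) ended 3499 bp before the gene's lower-coordinate end. Its fold was above 99.8% of triple mutant domains. No wild-type domain lay within 6 kb of the gene on that side. In the wild type the nearest domain began 3404 bp beyond the gene's higher-coordinate end (chromosome 1, 29516504 to 29526244). Within 5 kb on either side of the gene, 1.60 kb was covered in the wild type against 9.52 kb in the triple mutant, the largest difference among the 7 genes. Part of the separate domain is counted in the 9.52 kb.

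The REF6-GFP peak with DSG over GA2OX1 ran from 29511778 to 29513392 of chromosome 1, over 85.9% of the gene body, with a fold of 17.9. It ranked 173 of 5393 peaks, and 96.8% of the list had a lower fold. Without DSG the peak (29511853 to 29513135) had a fold of 14.4, above 91.0% of its list. The summits of these peaks lay 8 bp apart, at 68.2% and 67.7% of the way through the gene. Both peaks lay wholly within the new domain of the triple mutant and wholly outside wild-type domains.

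GA2OX2 was covered over 3.28% of its body in the wild type against 90.3% in the triple mutant. The triple mutant domain spanned 2856 bp (chromosome 1, 10537708 to 10540563), and its fold of 2.14 was near the middle of its list, above 47.8% of domains. Unlike GA2OX1, this gene had small wild-type domains at both ends. A domain of 550 bp lay 619 bp before the lower-coordinate end and another of 680 bp (10539960 to 10540639) overlapped the higher-coordinate end by 3.28% of the body. The latter had a −log10 q of 8.49. With 1 kb on either side included, GA2OX2 was covered over 23.1% in the wild type against 62.2% in the triple mutant, and it no longer met the limit of 10%. That wild-type share rests on these weak domains alone.

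The REF6-GFP peak with DSG at GA2OX2 (chromosome 1, 10537672 to 10538772) had a fold of 14.7, above 92.9% of its list, and ranked 382. Without DSG the peak (10537825 to 10538798) had a fold of 11.3, above 86.0% of its list. The summits lay 6 bp apart, 855 and 861 bp from the lower-coordinate end. The nearest wild-type domain was 1474 bp from the summit with DSG. The triple mutant domain covered 96.7% of the peak with DSG and 100% of the peak without it.

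GA2OX3 was covered over 0% in the wild type against 66.1% in the triple mutant, by a domain of 1236 bp that lay inside the gene (chromosome 2, 14557051 to 14558286). Its fold of 2.60 was above 62.5% of triple mutant domains, and 40.5% of domains were narrower. Neither 1 kb flank was covered in either genotype. With those flanks included its triple mutant coverage was 31.9%, under the limit of 50%, and with 80% required of the body it was not called gained either. The new domain nearly coincided with the REF6-GFP peaks, which ran from 14557079 to 14558349 with DSG and from 14557206 to 14558298 without it. It covered 95.0% of the first peak and 98.9% of the second. The summits of these peaks were at the same base, 825 bp from the lower-coordinate end, and their folds were 10.4 with DSG, above 84.7% of the list, and 12.0 without DSG, above 87.4%.

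The new domains differed in extent: 6398 bp at GA2OX1, past both ends of the gene, 2856 bp at GA2OX2, past 1 end, and 1236 bp at GA2OX3, past neither. The REF6-GFP peaks with DSG were more alike in width, at 1615, 1101 and 1271 bp. By fold the order with DSG was GA2OX1, GA2OX2, GA2OX3, and without DSG it was GA2OX1, GA2OX3, GA2OX2, so that the places of GA2OX2 and GA2OX3 are not fixed by these lists. Strong binding did not always go with a new domain elsewhere. Among genes under 10% coverage in the wild type with a REF6-GFP fold with DSG at least that of GA2OX3, 39.2% of 978 were gained, and at least that of GA2OX1, 44.6% of 213 were.

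**Figure D2:**
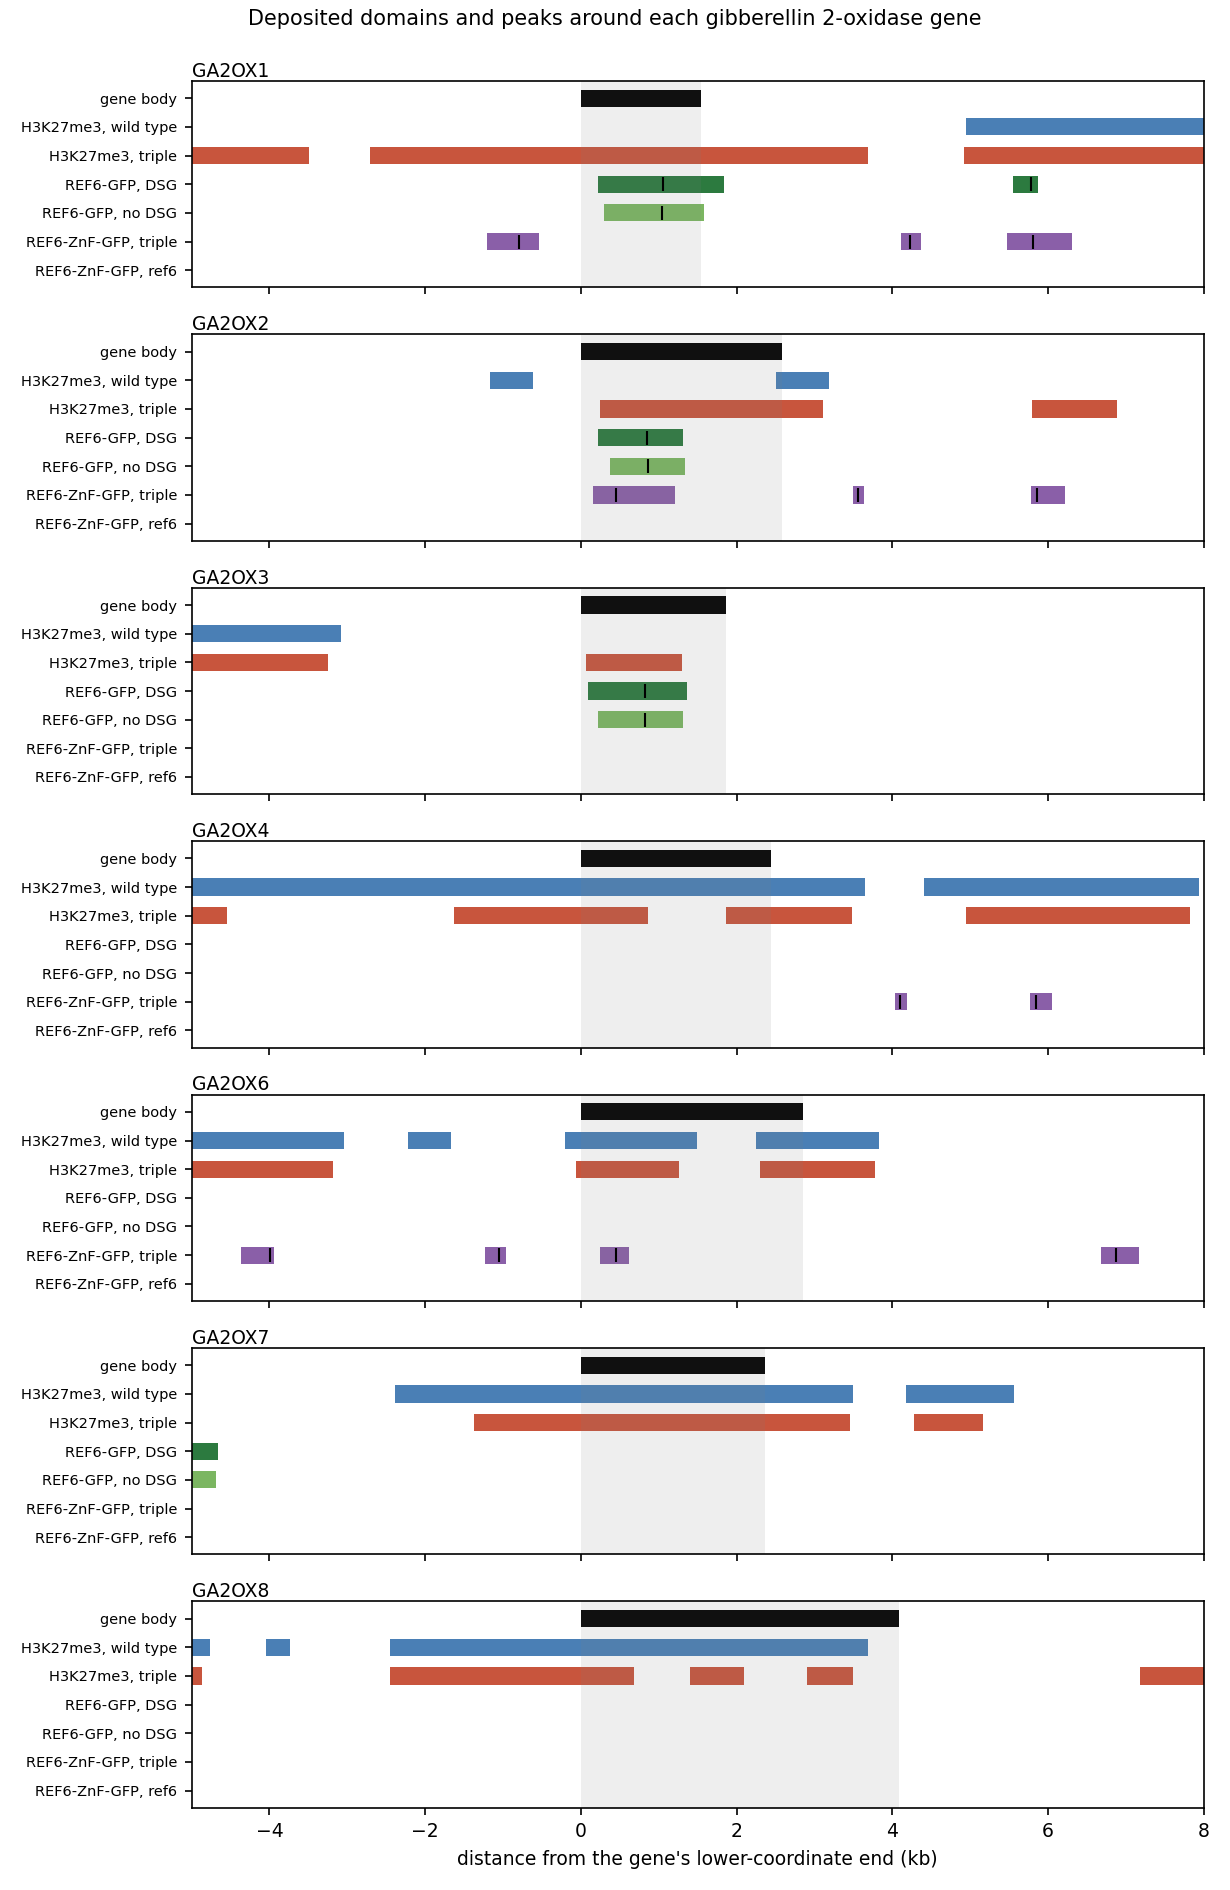
Deposited H3K27me3 domains and REF6 peaks around each gene, in kb from the gene's lower-coordinate end, with the gene body in black and shaded and summits as vertical ticks. REF6-GFP summits lie inside GA2OX1, GA2OX2 and GA2OX3 and under the triple mutant domain there, while GA2OX4, GA2OX6, GA2OX7 and GA2OX8 carry domains in both genotypes and no REF6-GFP peak in the body or within 1 kb.

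Among the 4 genes marked in the wild type, coverage in the triple mutant was equal or lower, as it was in 77.2% of the 6505 coding genes marked in the wild type. GA2OX7 was covered over 100% in both genotypes and over both 1 kb flanks. Its domain spanned 5874 bp in the wild type (chromosome 1, 18887088 to 18892961) and 4830 bp in the triple mutant (18888102 to 18892931), and the fold was above 92.1% of the list in the wild type against 80.2% in the triple mutant. GA2OX6 was covered over 73.5% in the wild type against 63.6% in the triple mutant. It had the same layout in both, with a domain at each end and an uncovered stretch inside the gene. In the wild type these domains ran from 486598 to 488293 and from 489050 to 490629 of chromosome 1, and in the triple mutant from 486735 to 488056 and from 489095 to 490579.

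GA2OX4 was covered over 100% in the wild type by 1 domain of 11707 bp (chromosome 1, 17690537 to 17702243), wider than 98.2% of wild-type domains. In the triple mutant the list held 3 separate domains within that stretch, of 2906, 2491 and 1616 bp. The last 2 entered the gene from either end and left a gap inside it, and coverage was 59.0%, a difference of -41.0 percentage points. Of the 6505 coding genes marked in the wild type, 4.37% had a difference at least as far in this direction. Within 5 kb of the gene 11.7 kb was covered in the wild type against 7.06 kb in the triple mutant.

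GA2OX8 showed a similar division of 1 domain. A wild-type domain of 6136 bp (chromosome 4, 11300232 to 11306367) covered 90.1% of the gene. In the triple mutant the same stretch held domains of 3124, 684 and 600 bp, and coverage was 48.0%, a difference of -42.2 percentage points. A difference at least as far in this direction was found in 4.24% of genes marked in the wild type, whose median difference was 0. The first of these triple mutant domains (11300235 to 11303358) began within 3 bp of the wild-type one and had a −log10 q of 37.1. The smaller ones had 2.02 and 7.96, and with a −log10 q of at least 10 required GA2OX8 was covered over 16.6% in the triple mutant. The gaps mark where no domain was called and do not measure how far the signal was below that of the wild type.

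REF6-ZnF-GFP in the triple mutant had a summit in the body or within 1 kb of GA2OX1, GA2OX2 and GA2OX6, 3 of 7 genes, against 35.1% of all coding genes. The peaks of this list are uneven over the chromosomes. On chromosomes 1 and 2, which hold 6 of the 7 genes, it had a summit at 51.1% of coding genes and at 3 of these 6, and on chromosome 4, which holds GA2OX8, at 11.3%. The peaks at the 3 genes were ordinary for their list. The highest folds were 3.21 at GA2OX1, 3.25 at GA2OX2 and 3.27 at GA2OX6, above 55.1%, 56.7% and 57.1% of the list. At GA2OX1 the REF6-ZnF summit lay outside the gene, 799 bp before its lower-coordinate end and 1849 bp from the REF6-GFP summit with DSG. The whole peak lay at least 540 bp from the gene, past the 539 bp gap to the neighbour RIP4, which has the same fold. With 500 bp in place of 1 kb, GA2OX1 had no REF6-ZnF summit. At GA2OX2 the leading REF6-ZnF peak (chromosome 1, 10537611 to 10538669) overlapped the REF6-GFP peak, with summits 400 bp apart, and another summit lay 973 bp beyond the higher-coordinate end, just inside the 1 kb limit. At GA2OX6 the summit lay inside the gene, and another at 1046 bp from the body fell just outside the limit. GA2OX3, which had REF6-GFP peaks in both lists, had no REF6-ZnF-GFP peak within 6 kb.

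With a −log10 q of at least 10, GA2OX2 alone kept a REF6-ZnF-GFP summit, 1 of 7 genes, against 16.0% of all coding genes. With 403 of the 9327 peaks on chromosome 4, the lack of a peak at GA2OX8 is not read as a lack of binding. In ref6, REF6-ZnF-GFP had a summit at 0 of 7 genes, against 1.08% of all coding genes.

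**Figure D3:**
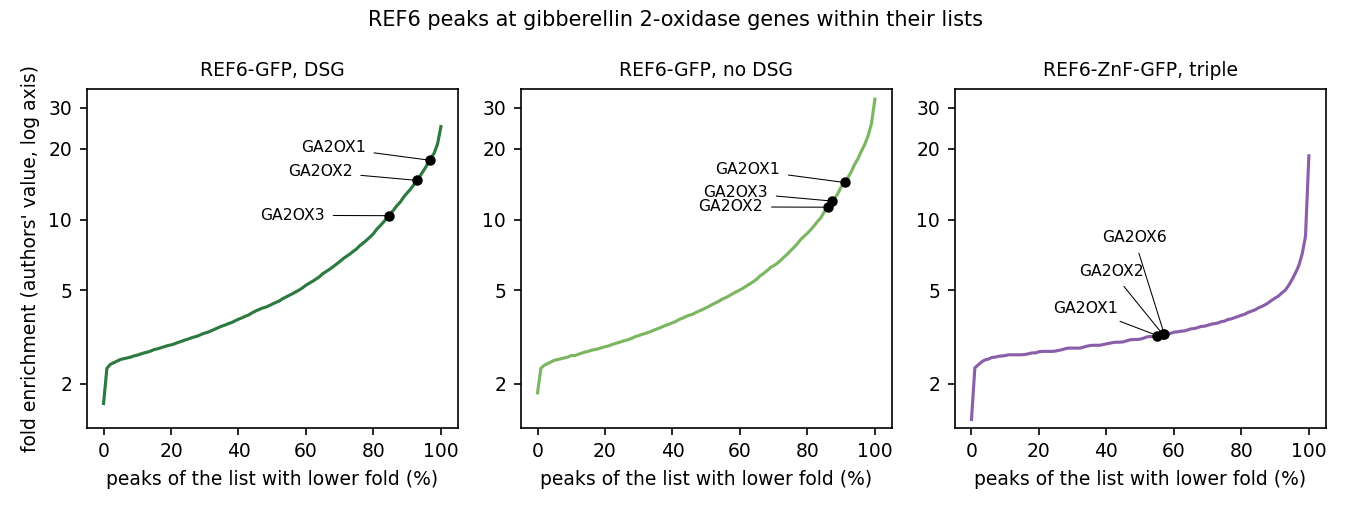
Fold enrichment (authors' value, log axis) against the share of peaks in the same list with a lower fold, for 3 REF6 lists, with the highest peak at each bound gene as a point. The REF6-GFP peaks at GA2OX1, GA2OX2 and GA2OX3 lie above 84.7 to 96.8% of their lists, and the REF6-ZnF-GFP peaks lie between 55.1% and 57.1%.

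The coding genes next to the 2-oxidases show whether the patterns reached them. On the lower-coordinate side of GA2OX1, RIP4 (539 bp away) lay under the same new domain. It was also covered over 0% in the wild type against 100% in the triple mutant. RIP4 had no REF6-GFP summit in its body or within 1 kb, and a REF6-ZnF-GFP fold in the triple mutant of 3.21. On the other side, AT1G78450 was covered over 100% in both. Next to GA2OX2, AT1G30050 was covered over 0% and 69.2%, by a separate domain with a −log10 q of 1.53. Next to GA2OX3, CCP1 was at 0% in both genotypes and AT2G34540 at 100% and 99.0%. The neighbours of GA2OX4, AT1G47980 and the transcription factor gene MYB112, were at 98.3 to 100% in both genotypes, and so the uncovered stretch of the triple mutant did not include them. The neighbours of GA2OX6 were also covered over most of their length in both genotypes, with GPAT2, an acyltransferase gene, at 100% in both and AT1G02405 at 100% and 93.6%. Both neighbours of GA2OX7 and of GA2OX8 were at 0% in both genotypes, including RP1, which lies 174 bp from GA2OX8.

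Other genes of the gibberellin pathway were taken from lists of synthesis, inactivation and signalling genes, 31 in all. By the rule above 0 of the 31 were gained, against 6.29% of all coding genes, a share at which few of 31 genes would be called. Of 14 synthesis genes, 6 were marked in the wild type against 8 in the triple mutant (all coding genes: 23.7% and 30.9%). REF6-GFP with DSG bound 5 of the 14, against 25.1% of all coding genes. The largest differences towards the triple mutant were at GA20OX1 and GA20OX2, which encode 20-oxidases of the late synthesis steps. GA20OX1 was covered over 31.9% in the wild type against 97.9% in the triple mutant, with a REF6-GFP fold with DSG of 8.88. GA20OX2 was covered over 43.2% and 100%, with a fold of 13.0. Both began above the limit of 10% and so could not be called gained. KAO1, which encodes a kaurenoic acid oxidase of the middle steps, had a fold of 14.7, close to that at GA2OX2, and was at 0% in both genotypes. CPS, the gene of the first committed enzyme, had a fold of 6.67 and was at 84.8% and 98.3%. The genes GA20OX4, GA20OX5 and GA3OX3 were at 100% in both genotypes. GA3OX3 was also bound, with a REF6-GFP fold with DSG of 4.75, while GA20OX4 and GA20OX5 had no REF6-GFP summit in the body or within 1 kb.

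Of 6 genes listed for inactivation beside the set described here, 6 were marked in the wild type, against 23.7% of all coding genes. These include GAMT1 and GAMT2, which encode gibberellin methyltransferases, at 100% and 96.5% in the wild type against 100% and 96.4% in the triple mutant. GAMT2 had a REF6-GFP fold of 2.15. ELA1 and CYP714A2 encode cytochrome P450 enzymes. ELA1 was at 97.2% and 93.2%, and CYP714A2 was at 56.7% and 0%, the 1 lost call among the 31 genes (0.565% of all coding genes). With a −log10 q of at least 10 required, CYP714A2 was not marked in the wild type and this call ended. AT5G58660 and AT3G47190 were listed as the further 2-oxidases GA2OX9 and GA2OX10, but the gene table names them by locus only. Both were at 100% in both genotypes, with no REF6-GFP summit.

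Of 11 signalling genes, 1 was marked in each genotype (all coding genes: 23.7% and 30.9%). It was SNE, an F-box protein gene, at 62.3% in the wild type against 75.4% in the triple mutant. The receptor genes GID1A and GID1C and the DELLA repressor genes GAI, RGA, RGL1 and RGL2 were at 0% in both. The receptor gene GID1B was at 0% and 36.1%, and the DELLA gene RGL3 at 7.88% and 37.8%, both under the limit of 50% and with no REF6-GFP summit. REF6-GFP with DSG bound 2 of the 11, SNE (fold 2.16) and SPY, against 25.1% of all coding genes. SPY, which encodes a sugar transferase that dampens gibberellin signalling, had a REF6-GFP fold of 4.50 and was at 0% in both genotypes.

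**Figure D4:**
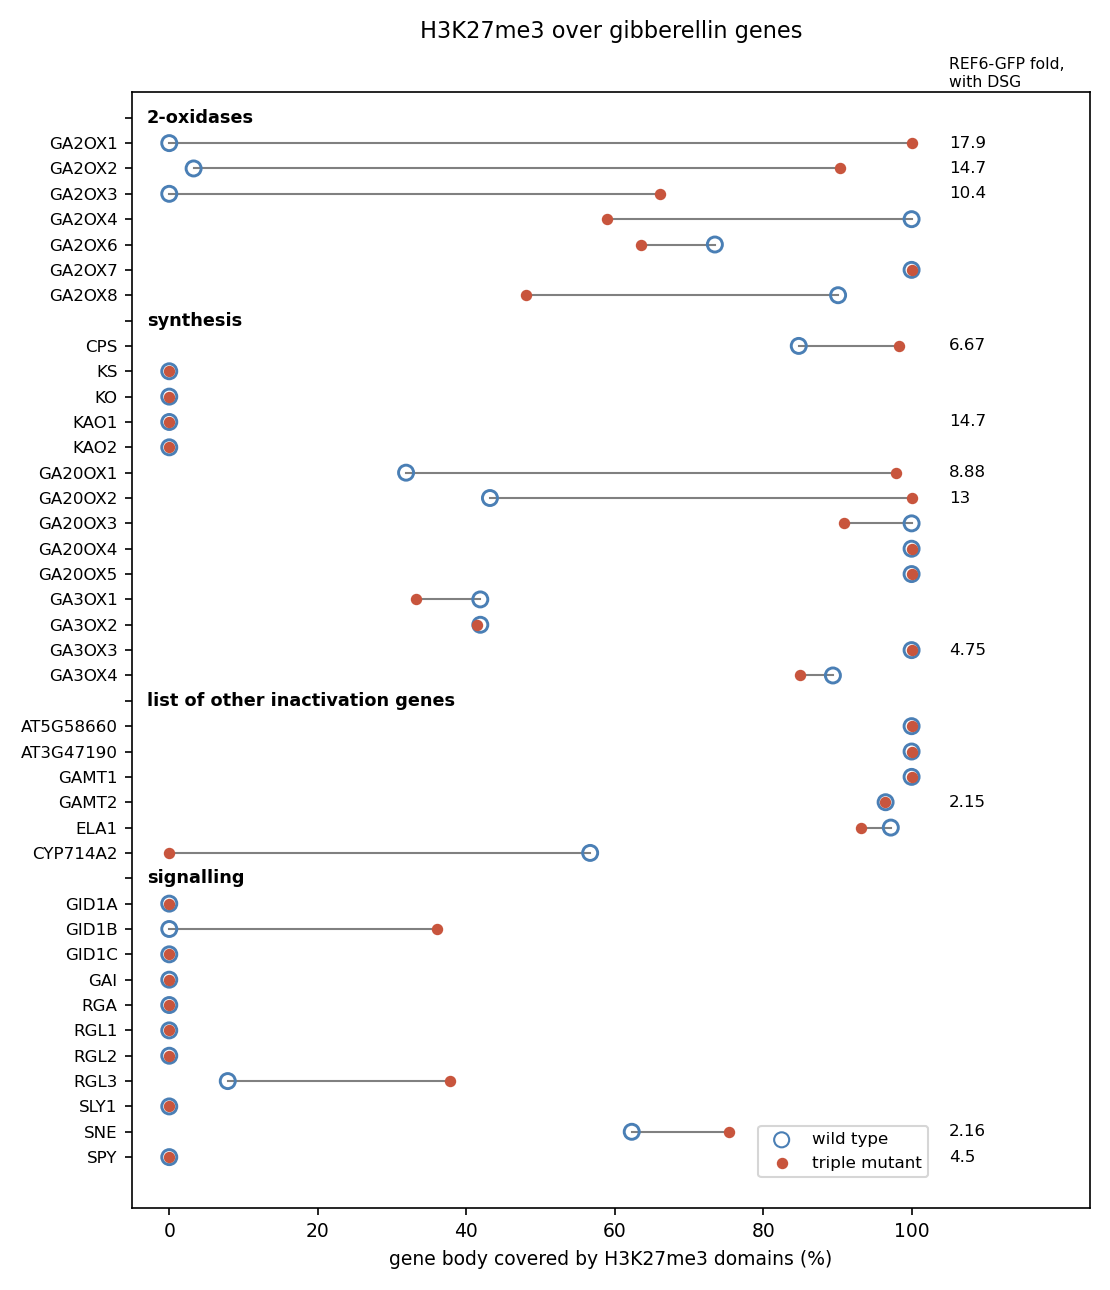
Share of the gene body (percent) covered by H3K27me3 domains in the wild type (open circles) and the triple mutant (filled circles) for the 7 gibberellin 2-oxidases and 31 other gibberellin genes, with the REF6-GFP fold with DSG at right where a summit lies in the body or within 1 kb. GA2OX1, GA2OX2, GA2OX3, GA20OX1 and GA20OX2 have the longest lines towards higher coverage in the triple mutant, and each has a REF6-GFP fold.

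Likeness over 6 readouts (coverage in each genotype and the scaled log2 fold in each REF6 list) was measured as a Euclidean distance, and the genes named with a symbol nearest to each bound 2-oxidase were taken. For GA2OX1 they were MYB50, PHO1;H1 and BPC7, at distances of 0.0546 to 0.0741. MYB50, a MYB transcription factor gene, was at 0% and 100% with a REF6-GFP fold with DSG of 18.4. For GA2OX2 they were ZPR3, BBX9 and TPK4, at 0.0848 to 0.0888, and ZPR3, a little zipper protein gene, was at 0% and 96.7% with a fold of 12.8. For GA2OX3 they were the glutathione transferase gene GSTU25, SFH12 and GAUT12, at 0.0493 to 0.0773, and GSTU25 was at 0% and 65.8% with a fold of 10.3. For GA2OX6 they were arpc2b, AUF2 and the homeobox gene HB24, at 0.0160 to 0.0369. Among the 2-oxidases themselves, GA2OX1 and GA2OX2 were 0.134 apart, GA2OX3 was 0.611 and 0.553 from them, and GA2OX1 was 1.45 to 1.68 from the 4 genes marked in the wild type. The distances of GA2OX3 depend much on REF6-ZnF-GFP in the triple mutant, with no fold there against mid-list folds of 3.21 and 3.25. That list is sparse on chromosomes 4 and 5 (403 and 290 of 9327 peaks), where SFH12 and GAUT12 lie, also without a fold.

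By substrate, the gained and bound genes were 3 of the 5 genes for gibberellins with 19 carbons and 0 of the 2 genes for those with 20 carbons. With so few genes this is a description of the genes chosen here, not of the whole family, and no test of a difference between the classes.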

How the data were processed

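Chromatin immunoprecipitation peak lists of 6 groups (15 of 23 samples) were used, grouped by sample titles. Per the submitters' processing notes the build was TAIR10 and the tools were MACS2 2.1.0, deepTools, Picard 2.60 and Bowtie 1.1.2, with no order or settings. The deposited lists have no header and were read in the MACS2 column order. Their peak names include "pooled", and each deposited list was taken as 1 call per group. The deposited fold is a ratio to a control not given in the sources used here, and the −log10 q is the authors' value as deposited. The deposited score was not used. No read depth was used.

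Gene names and bodies came from a RefSeq table of the TAIR10.1 assembly. Its coordinates are not printed. On each chromosome 83.6 to 87.0% of REF6-GFP summits with DSG lay in coding genes, against 60.6 to 68.3% after shifts of 5 or 20 kb. All 7 members and 31 pathway genes were matched by locus. Coverage is the share of the body under domains, and a gene is bound where a summit lies in the body or within 1000 bp. Both functions were tested on simulated data against a count base by base. Alternatives were a −log10 q of at least 10, marked at 80%, unmarked under 20%, flanks of 0, 500 or 2000 bp, peak overlap, and bodies with 1 kb on either side. Genes were named by rule: all members, pathway genes, nearest coding neighbours and the 3 most alike genes. Members and lists were chosen with earlier results of these data known. A planned search for REF6 words in promoters was not run because no sequence was used here. Python 3.11.15, numpy 2.4.6 and pandas 2.3.3 were used.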

Additional observations from a re-analysis of the deposited data

How the results depend on the processing

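Of 37 alternative counts over the 7 genes, 34 stayed within 1.5 times the reported one. This tally says little about stability. It includes the lost genes and REF6-ZnF-GFP in ref6, which were 0 in every setting. It also takes a fall from 3 genes to 2 as within the limit. The −log10 q cut of 10 left the REF6-GFP calls with DSG unchanged over all coding genes, at 6886. With 80% counted as marked, 3 genes were marked in the triple mutant (GA2OX1, GA2OX2 and GA2OX7) instead of 6 (23.5% of all coding genes instead of 30.9%), and GA2OX3 was no longer gained. With 1 kb on either side of the body included, 1 gene was gained (GA2OX1) instead of 3 (2.90% of all coding genes instead of 6.29%). With a −log10 q of at least 10, REF6-ZnF-GFP in the triple mutant was at 1 gene (GA2OX2) instead of 3 (16.0% of all coding genes instead of 35.1%). A −log10 q of at least 10 in either or both H3K27me3 lists left the 3 gained calls in place, and every REF6-GFP alternative left the same 3 genes bound. In the pathway lists, a −log10 q of at least 10 in all lists made GA20OX1 a gained gene and ended the lost call of CYP714A2. Leaving out a replicate was not run, since each list pools its samples. No paired analysis was possible because the lists pool the numbered replicates.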

Other observations

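REF6 peaks also lay near the 2-oxidases beyond 1 kb. These were chosen after their values were seen. A REF6-GFP peak lay 4664 bp from the body of GA2OX7 with DSG (chromosome 1, 18884189 to 18884809; fold 4.60) and at 4687 bp without DSG (fold 3.61), and neither was covered by H3K27me3 in either genotype. A weak REF6-GFP peak with DSG lay 4013 bp from GA2OX1 (chromosome 1, 29517113 to 29517434; fold 2.37, above 1.41% of its list), inside domains of both genotypes. The REF6-ZnF-GFP peak of the triple mutant there (29517036 to 29517870) had a fold of 7.09, above 98.0% of its list, and its summit lay inside AT1G78450.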
